A study of Mus musculus with 12 samples.

Results

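Untreated SLE123 mice and untreated B6 mice were compared by RNA-Seq of purified CD4+ cells. SLE123 is a lupus-prone congenic strain, in which the Sle1, Sle2 and Sle3 regions of NZM2410 mice were placed on the background of B6 (C57BL/6J). The comparison takes the 6 libraries of mice that received no antibody, 3 of each strain, out of 12 libraries in the series. The other 6 libraries came from 3 SLE123 and 3 B6 mice given 5 injections of the anti-CD45RB antibody MB23G2, and they were used as a second, separate comparison of the same strains. The mice were females 9 to 12 weeks old, CD4+ cells were isolated by magnetic depletion of all other cells, and each group holds 3 libraries. Cells were also sorted by CD25, but the sample titles name no fraction, so that the share of CD25+ cells in each library is not known. A congenic strain can differ from B6 in any gene inside its 3 regions as well as in disease, and these differences cannot be told apart in a comparison of whole strains. The study chose mice of this age so as to assess them before chronic immune cell activation could be detected.

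SLE123 mice develop autoantibodies and nephritis, and each region is known for a separate part of the disease. Sle1, on chromosome 1, breaks tolerance to chromatin and holds the SLAM receptor and Ifi200 families, Sle2, on chromosome 4, is known for B cell hyperactivity, and Sle3, on chromosome 7, for hyperactive T cells and myeloid cells. CD4+ T cells leave the thymus as naive cells that recirculate through lymph nodes, and after antigen contact they become effector, memory, T follicular helper or regulatory cells. T follicular helper cells enter B cell follicles and drive germinal centers, in which B cells switch and mutate their antibodies.

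The values are FPKM, the fragments of a gene per kilobase of transcript and per 1000000 fragments of the library. The fragments behind them were recovered and gave 16093122 to 18086449 fragments in the B6 libraries and 16525778 to 23641603 in the SLE123 libraries. Differences are given on the scale of log2(FPKM + 1) as SLE123 minus B6, from limma's moderated test with Benjamini-Hochberg adjustment, and a gene was called at an adjusted p-value under 0.05. This scale understates the change of genes with low FPKM. Of 13115 genes tested, 2990 were higher (22.8%) and 2631 lower (20.1%) in SLE123, 42.9% of the genes tested. The counts of the gene lists below are to be read beside these shares. The 3 SLE123 and 3 B6 mice did not overlap for 58.6% of the genes tested. Differences of at least 1 on the log2 scale were called for 1243 genes that were higher (9.48% of those tested) and 278 that were lower (2.12%). On the TPM scale described next these counts were 1173 and 1108, so that the balance of large rises and falls depended on the scaling. The number called moved by over 1.5 times when 1 B6 mouse was left out, to 3710 genes without replicate 3 and 3672 without replicate 4.

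The split between rises and falls also depended on the scaling. Of the genes called, 53.2% were higher on the FPKM scale, 24.3% when the values of each library were rescaled to a common sum (TPM), 34.0% after quantile normalization and 65.7% when immunoglobulin genes were left out before the rescaling. The median difference over all genes tested was -0.03, -0.38, -0.16 and 0.05 under these 4 scalings. Leaving out immunoglobulin genes kept the sign of all 5419 other genes that had been called, and 4443 of them were called again. Of the 1320 others with a difference of at least 1, 1316 were called again in the same direction.

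The treated mice share no library with the untreated mice. Among the genes called in untreated mice, 92.9% had a strain difference of the same sign in treated mice, against 76.3% of all genes tested. Of the 1521 genes with a called difference of at least 1, 1460 had the same sign and 1322 were also called in treated mice, where 52.1% of the genes tested were called.

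T cell genes were abundant in all libraries. Cd4 itself was at 327, 256 and 237 FPKM in SLE123 and 295, 307 and 296 FPKM in B6, and the groups overlapped. The 16 T cell identity genes summed to 3442 to 4583 FPKM in SLE123 and 4593 to 4787 FPKM in B6. Of these 16, 1 was called higher and 3 lower, with a median of -0.18, and on the TPM scale 11 were called lower and none higher. Leaving out immunoglobulin genes gave 3 called lower and 2 higher. The one called higher on the FPKM scale was Zap70, the kinase that binds the phosphorylated T cell receptor. It was at 226, 211 and 199 FPKM in SLE123 and 134, 142 and 146 FPKM in B6, with no overlap. Among those that fell were Thy1, a surface marker of T cells, by 1.99-fold of the mean FPKM, and Bcl11b, a transcription factor of T cell commitment, by 1.64-fold. The third SLE123 mouse was the lowest library for both. Cd8b1, a chain of the CD8 coreceptor, was at 5.55, 5.4 and 3.88 FPKM in SLE123 and 11.6, 12.8 and 10.9 FPKM in B6, a difference of -1.11 ± 0.13 (SE, n = 3 mice per group, adjusted p = 0.00076). Of 185 T cell receptor gene segments tested, 75 were called lower and none higher, with a median of -0.47 (20.1% of all genes were called lower).

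Transcripts of plasma cells, B cells, granulocytes and red cells were higher in every untreated SLE123 library than in any untreated B6 library. Immunoglobulin genes took 5.06 to 12.2% of the fragments of SLE123 libraries and 0.0895 to 0.133% of those of B6 libraries, and 202 of 222 tested were called higher, none lower, with a median difference of 5.59. The constant gene of the IgG2c heavy chain, Ighg2c, reached 5420.1, 4114 and 13014 FPKM in SLE123 and 9.92, 16.1 and 27.6 FPKM in B6. All 8 plasma cell genes tested rose, with a median of 3.69, among them Jchain, the joining chain of polymeric antibody, at 1634, 2429 and 4204 FPKM in SLE123 and 29.2, 31.6 and 46.8 FPKM in B6. Mzb1, a chaperone of antibody secretion, and Derl3, a factor of protein export from the endoplasmic reticulum, rose by 6.21 and 4.54 on the log2 scale. Sdc1, the plasma cell surface marker CD138, rose by 4.12, and Fkbp11, a folding enzyme of secretory cells, by 3.27. The third SLE123 mouse held the most of both kinds of transcript. All 7 B cell genes tested rose, with a median of 2.79. Cd79a, a signaling chain of the B cell receptor, was at 25.3, 40 and 87.2 FPKM in SLE123 and 2.08, 2.31 and 2.26 FPKM in B6. Its partner Cd79b, the surface protein Ms4a1 (CD20) and the kinase Blk rose by 3.90, 2.82 and 2.21 on the log2 scale.

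Granulocyte and red cell transcripts moved the same way. All 6 basophil and mast cell genes rose. The basophil protease Prss34 was at 55.9, 62 and 61 FPKM in SLE123 and 0.561, 0.0909 and 0.358 FPKM in B6. Mcpt8, another basophil protease, was at 26, 30.9 and 27.3 FPKM in SLE123 and 0.362, 0.259 and 0.581 FPKM in B6. Fcer1a, Ms4a2 and Cpa3, which encode parts of the IgE receptor and a granule peptidase, rose by 2.28, 1.67 and 1.43 on the log2 scale. All 7 neutrophil genes rose. The granule enzymes were the clearest, with Mpo at 45.2, 61.2 and 53.5 FPKM in SLE123 and 1.58, 2.25 and 2.89 FPKM in B6 and Elane at 28.9, 56.9 and 43.5 FPKM in SLE123 and 1.21, 1.86 and 2.43 FPKM in B6. S100a8, S100a9 and Ngp, which are abundant in maturing neutrophils, rose by 3.06, 2.59 and 1.84. All 5 erythroid genes tested rose. Of the 7 genes listed, 5 were above 1 FPKM in an untreated SLE123 library and none in an untreated B6 library. Genes low in all groups fell below the filter of 0.5 FPKM on the mean of all libraries, which shaped this count. The hemoglobin gene Hba-a1 was at 21.3, 15.5 and 25.5 FPKM in SLE123 and 0.266, 0.633 and 0.889 FPKM in B6. Its near-identical partner Hba-a2 was listed at 0 in all 3 SLE123 libraries, so that the split of reads between both genes is uncertain. The beta globin genes Hbb-bs and Hbb-bt and the anion exchanger Slc4a1 rose by 3.04, 1.91 and 1.41.

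Monocyte and cytotoxic cell genes were mixed. Of 8 monocyte genes tested, 7 rose, such as the lysozyme gene Lyz2 at 23.4, 21.1 and 46.3 FPKM in SLE123 and 6.41, 1.66 and 3.14 FPKM in B6. Tyrobp, a signaling adaptor, Mpeg1, a pore-forming protein, Csf1r, the receptor of macrophage colony-stimulating factor, and Cst3, a protease inhibitor, rose by 2.20, 2.01, 1.99 and 1.57. Among 4 dendritic cell genes 1 rose (Zbtb46, by 0.35), and of 3 platelet genes Pf4 and Itga2b rose by 1.49 and 0.62. Of 11 genes of NK and cytotoxic cells, 4 rose and 3 fell, beside 42.9% of all genes called. The protease Gzma and the transcription factor Eomes rose by 3.37 and 1.13, while the receptors Klrd1 and Klrb1c fell by 1.40 and 1.33.

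The plasma cell list summed to 2052 to 5332 FPKM in SLE123 and 72 to 93.3 FPKM in B6. The B cell list summed to 64.9 to 241 FPKM in SLE123 and 6.51 to 7.97 FPKM in B6, the neutrophil list to 91.4 to 139 FPKM and 4.01 to 7.18 FPKM, and the basophil and mast cell list to 100.2 to 114 FPKM and 4.02 to 5.73 FPKM. The monocyte list summed to 291 to 428 FPKM in SLE123 and 149 to 164 FPKM in B6. No member of these 5 lists was at 0 in all 3 libraries of a group. Above 1 FPKM in any untreated library were 3 of 10 B cell and 2 of 9 neutrophil genes in B6, and 8 and 7 in SLE123. Genes low in all groups were not tested, which shaped the counts of tested genes that rose. In bulk RNA, more cells of a type and more of its RNA per cell cannot be told apart, and the part of these cells in the other results was not tested.

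**Figure D1:**
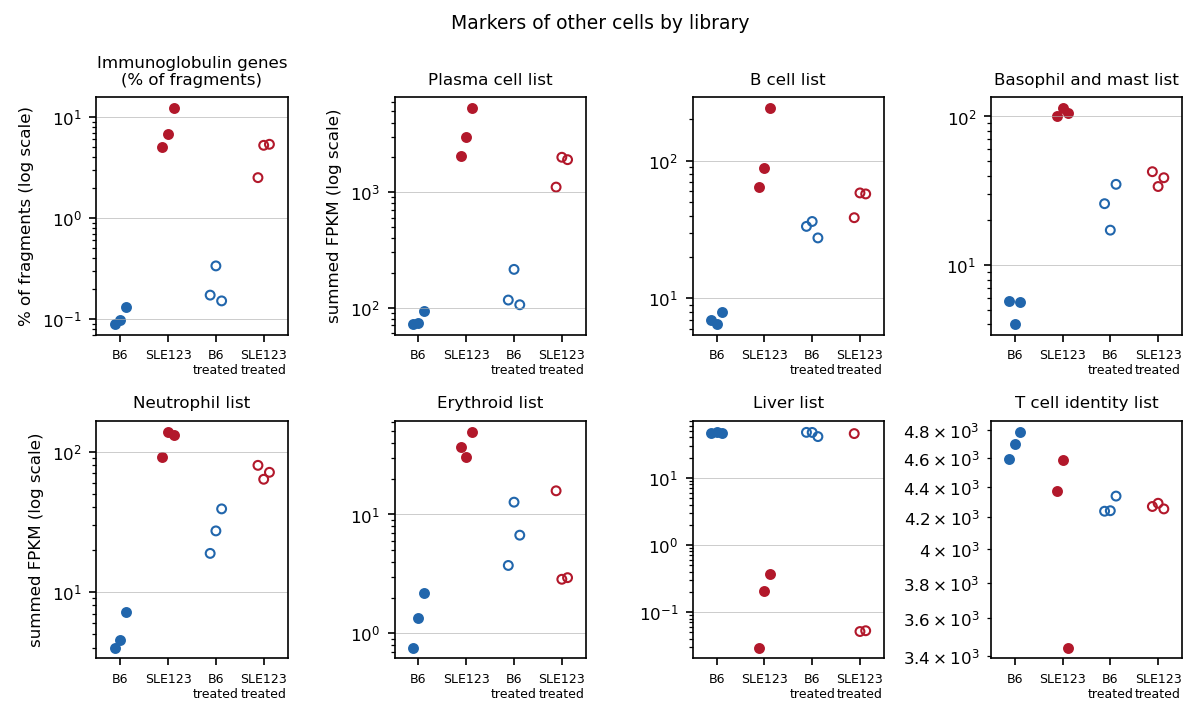
Each panel shows the 12 libraries, one point per mouse, as the percent of fragments from immunoglobulin genes or as the summed FPKM of a marker list, on log axes, with filled points for untreated and open points for treated mice (red SLE123, blue B6). Untreated SLE123 libraries lie above all untreated B6 libraries for immunoglobulin, plasma, B, basophil, neutrophil and erythroid lists, and below them for liver transcripts.

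Liver transcripts went the other way. All 6 liver genes tested fell. Of the 7 genes listed, 6 were above 1 FPKM in an untreated B6 library and none in an untreated SLE123 library. They could pass the filter on mean FPKM through the libraries with liver transcripts alone, which shaped this count. Alb, which encodes serum albumin, was at 29.2, 30.1 and 28.2 FPKM in B6, while 1 fragment was found in the 3 SLE123 libraries together. Apoa2, an apolipoprotein of high-density lipoprotein, was at 5.86, 6.83 and 7.44 FPKM in B6, with at most 3 fragments in any SLE123 library. Its companion Apoa1 was at 5.87, 5.18 and 4.98 FPKM in B6, with at most 4 fragments in any SLE123 library. Ttr and Fgb, for the carrier protein transthyretin and a fibrinogen chain, had no fragment in SLE123 and were at least 17.3-fold and 13.0-fold lower than in B6, taking 3 fragments in the shallowest SLE123 library as the floor. Ahsg, a liver plasma glycoprotein, was at 3.62, 4.76 and 4.55 FPKM in B6 with 2 fragments in SLE123. In treated mice, liver transcripts were present in all 3 B6 libraries and in the SLE123 library with replicate number 1, with Alb at 30.7, 29.4 and 24.7 FPKM in B6 and 28.2, 0 and 0 FPKM in SLE123. In the untreated comparison the presence of these transcripts and the strain cannot be told apart. When the treated SLE123 library that held liver transcripts was set against the 3 treated B6 libraries, 1441 of the 1521 genes called with a difference of at least 1 in untreated mice had the same sign (94.7%), against 73.4% of all genes tested. This comparison was chosen after the values were seen, rests on 1 SLE123 library and still sets one strain against the other. The part of liver transcripts in the untreated differences was not tested.

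Genes of naive CD4+ T cells were lower in SLE123. Of 14 naive and homing genes, 13 fell (20.1% of all genes were called lower), none rose, and all 14 were lower in every SLE123 mouse than in any B6 mouse (29.5% of all genes tested did not overlap in this direction). Their median was -1.18. Ccr7, the chemokine receptor that guides naive cells into the T cell zone, was at 114, 111 and 53.4 FPKM in SLE123 and 249, 249 and 241 FPKM in B6, a difference of -1.48 ± 0.27 (SE, n = 3 mice per group, adjusted p = 0.0047). Satb1, a chromatin organizer of thymocytes and naive T cells, was at 63.6, 58.7 and 32 FPKM in SLE123 and 179.8, 169 and 162 FPKM in B6. Actn1, an actin-binding protein, and Dapl1 fell by 3.08-fold and 2.82-fold of the mean FPKM. The third SLE123 mouse, which held the most immunoglobulin, was the lowest for all 4 genes. Without that mouse 13 of the list were called lower, with a median of -0.86. In treated mice all 14 had the same sign, with a median of -0.96.

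Most genes of activated and memory T cells rose. Of 16 such genes, 13 rose and 1 fell, with a median of 1.37 (22.8% of all genes were called higher). S100a4, a small calcium-binding protein, was at 106, 129.7 and 109 FPKM in SLE123 and 18.8, 24.5 and 18.7 FPKM in B6. Its relative S100a6 was at 85.1, 112 and 87.5 FPKM in SLE123 and 16.6, 15.7 and 18.6 FPKM in B6. Tnfrsf4, the costimulatory receptor OX40, rose 4.03-fold, from 14, 21.8 and 17.2 FPKM in B6 to 70, 75.4 and 68.1 FPKM in SLE123. Anxa2, an annexin, and Ly6a, the surface protein Sca-1, rose by 1.88 and 1.84 on the log2 scale. The groups were well separated for these genes, since the lowest SLE123 mouse lay more than 2-fold above the highest B6 mouse in each. Among 15 immediate early genes, which respond within minutes to receptor signals, 4 rose, 1 fell and 10 were not called, beside 42.9% of all genes called. On the TPM scale 4 were called higher and 5 lower. Egr2, Fosb, Nr4a2 and Egr1, all transcription factors, rose by 1.50, 1.12, 1.07 and 0.70 on the log2 scale, while Myc, which drives growth, fell from 43.3, 41.3 and 47.5 FPKM in B6 to 26.9, 31.1 and 32.1 FPKM in SLE123.

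**Figure D2:**
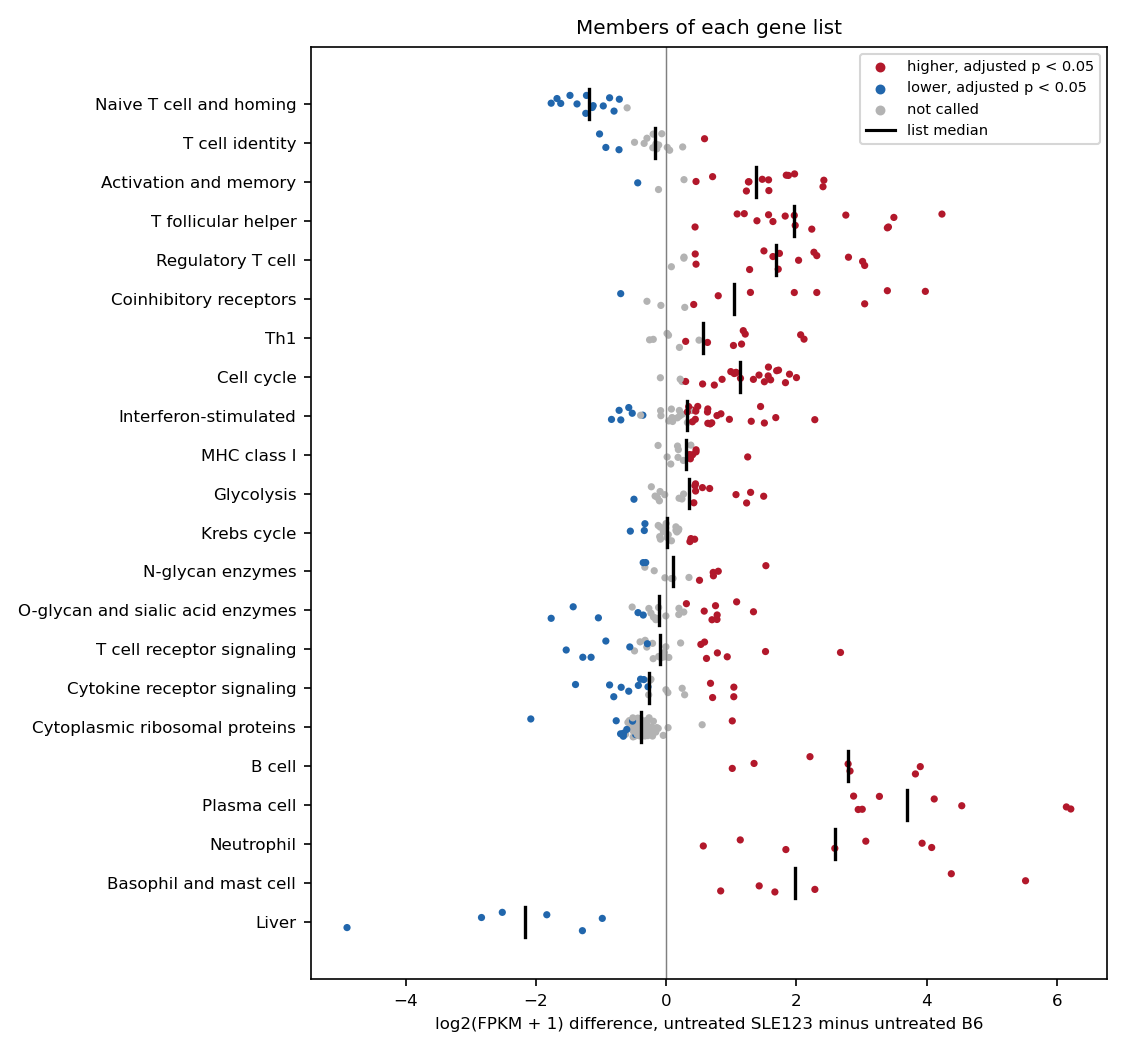
Each point is a tested gene of a list, placed by its log2(FPKM + 1) difference between untreated SLE123 and untreated B6 mice (red higher, blue lower, gray not called), and black bars are list medians. The naive list lies wholly below 0 and the T follicular helper list wholly above it, while Krebs cycle genes lie between -0.55 and 0.44.

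All 15 T follicular helper genes tested rose, with a median of 1.97 against -0.03 over all genes (22.8% of all genes were called higher). Il21, the cytokine with which these cells help B cells, was at 34.7, 23 and 33.6 FPKM in SLE123 and 0.928, 2.38 and 2.16 FPKM in B6, a difference of 3.50 ± 0.24 (SE, n = 3 mice per group, adjusted p = 6.3e-05). Pdcd1, the inhibitory receptor PD-1, was at 161, 129 and 163 FPKM in SLE123 and 10.9, 14.6 and 15 FPKM in B6. Cxcr5, the chemokine receptor for the follicle, was at 36.8, 33.4 and 43.4 FPKM in SLE123 and 7.75, 11.3 and 11 FPKM in B6. The transcription factors Ascl2, which induces Cxcr5, and Tox2 rose as well, Ascl2 from 0.0769, 0.206 and 0.231 FPKM in B6 to 12.3, 11.2 and 10.8 FPKM in SLE123 and Tox2 by 2.76 on the log2 scale. Sostdc1, a secreted antagonist of Wnt and BMP signals, had the largest rise of the list, at 82.4, 51.4 and 79.7 FPKM in SLE123 and 1.45, 3.22 and 4.12 FPKM in B6, or 4.23 ± 0.29 (SE, n = 3 mice per group, adjusted p = 5.9e-05). For all 15 genes every SLE123 mouse lay above every B6 mouse, beside 29.1% of all genes tested. In treated mice all 15 were called in the same direction, with a median of 2.14.

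Most coinhibitory receptors and regulatory T cell genes rose with them. Of 12 coinhibitory receptors, 8 rose and 1 fell (22.8% of all genes were called higher). Lag3, which binds MHC class II, was at 111, 115 and 116 FPKM in the SLE123 mice and 4.71, 7.29 and 7.2 FPKM in the B6 mice, a 17.8-fold difference of means and the largest of the list at 3.98 ± 0.15 (SE, n = 3 mice per group, adjusted p = 4.9e-06). Tigit, a receptor for nectin-like ligands, rose 8.47-fold, and Ctla4, which competes with CD28 for its ligands, rose 5.12-fold. Cd200, a ligand of an inhibitory myeloid receptor, was at 32.7, 31.8 and 30.6 FPKM in SLE123 and 7.76, 7 and 7.36 FPKM in B6. Of 16 regulatory T cell genes, 13 rose and none fell, with a median of 1.68, beside 22.8% of all genes called higher. Il10, an inhibitory cytokine, was at 9.56, 8.78 and 14.1 FPKM in SLE123 and 0.284, 0.211 and 0.901 FPKM in B6. Nrp1, a receptor found on thymic regulatory cells, was at 54.9, 47.2 and 51.4 FPKM in SLE123 and 5.81, 6.65 and 7.05 FPKM in B6. Nt5e, the ectoenzyme CD73, was at 83.7, 57.1 and 79.4 FPKM in SLE123 and 15.1, 15.1 and 12.6 FPKM in B6. All SLE123 mice lay above all B6 mice for these 3 genes. Several of these genes, such as Pdcd1, Tigit and Ctla4, stand in more than one list.

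Lists of the other helper lineages had lower medians (22.8% of all genes were called higher). Of 14 Th1 genes, 8 rose and none fell, with a median of 0.57. On the TPM scale 6 higher and 3 lower were called, and with immunoglobulin genes left out 8 higher and none lower. Ifng, the defining Th1 cytokine, was at 20, 25.3 and 26.6 FPKM in SLE123 and 9.35, 10.9 and 8.91 FPKM in B6. Cxcr3, a chemokine receptor of Th1 cells, was at 81.1, 86.6 and 79.3 FPKM in SLE123 and 33.1, 37.4 and 38.8 FPKM in B6. The chemokines Ccl4 and Ccl3 rose by 2.12 and 2.06 on the log2 scale. In treated mice they differed by 0.38 and 0.11, and Ccl5, also in the Th1 list, by -0.91. The Th1 median in treated mice was 0.17, and 4 of the 8 genes that rose were called there in the same direction. Of 5 tested Th2 genes, 3 rose, with a median of 0.73. They were the chemokine receptor Ccr8, by 2.08, Il4, the cytokine of Th2 and T follicular helper cells, by 1.09, and Il1rl1, the interleukin 33 receptor, by 0.73 on the log2 scale. Of 5 tested Th17 genes, 4 rose, with a median of 0.69. The transcription factor Rora was at 7.9, 5.95 and 6.85 FPKM in SLE123 and 3.81, 4.53 and 3.37 FPKM in B6. Ahr, which senses aryl hydrocarbons, Il1r1, an interleukin 1 receptor, and Ccr6, a chemokine receptor, rose by 1.00, 0.83 and 0.60.

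**Figure D3:**
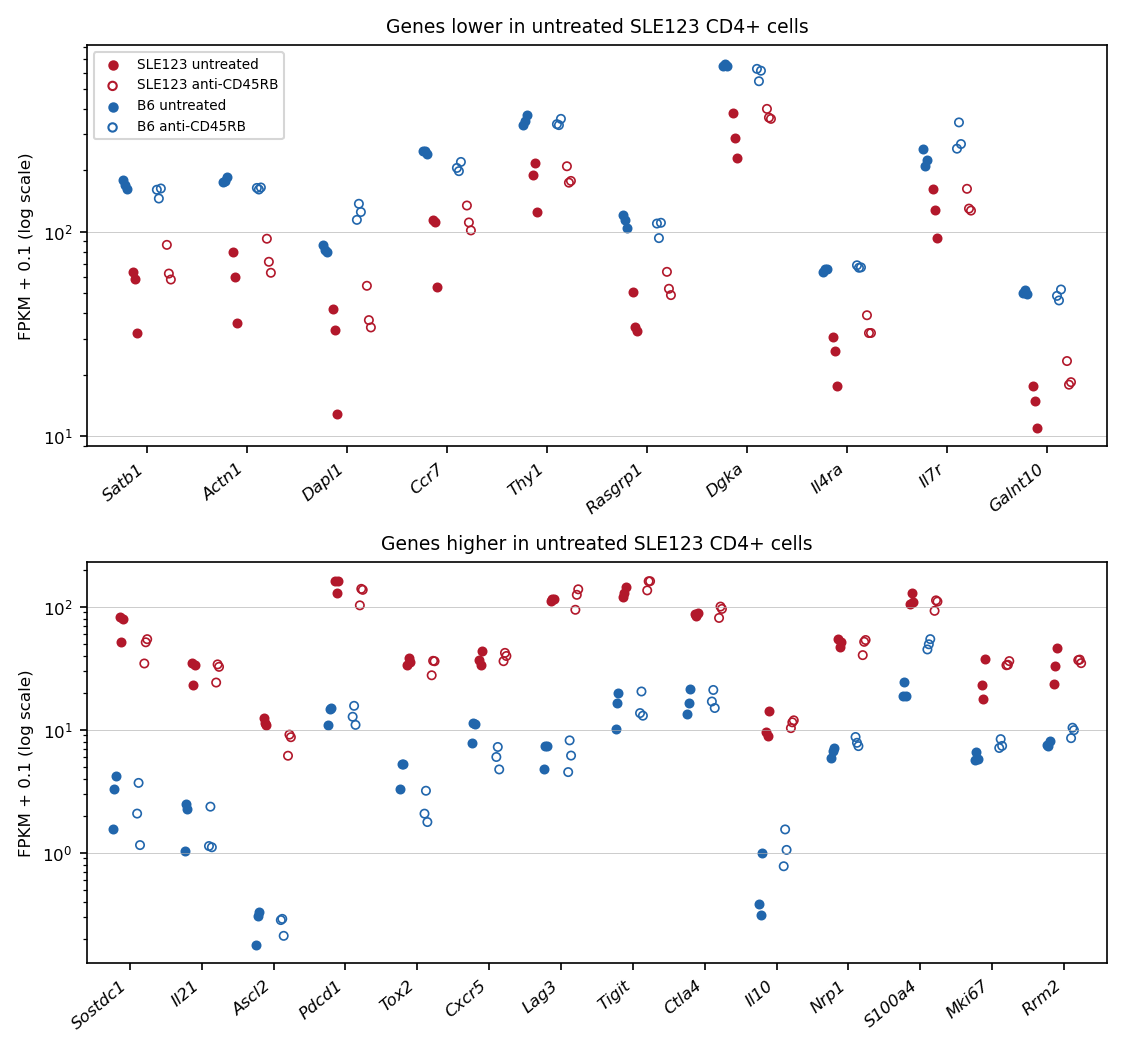
The FPKM + 0.1 of each mouse is drawn on a log axis for genes that were lower (top) and higher (bottom) in untreated SLE123, with filled points for untreated and open points for treated mice (red SLE123, blue B6). For each gene shown, the 3 untreated SLE123 mice lie on one side of all 3 untreated B6 mice, and the treated mice of each strain lie on the same side as the untreated ones.

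Most proliferation genes rose in SLE123. Of 23 cell cycle genes, 20 rose and none fell, beside 22.8% of all genes called higher. Their median was 1.14 in untreated mice and 1.18 in treated mice. Mki67, the proliferation antigen Ki-67, was at 22.9, 17.7 and 37.3 FPKM in SLE123 and 5.62, 6.55 and 5.69 FPKM in B6, a difference of 1.89 ± 0.24 (SE, n = 3 mice per group, adjusted p = 0.00092). Rrm2, a subunit of ribonucleotide reductase, was at 23.6, 33 and 46.4 FPKM in SLE123 and 7.35, 7.26 and 7.99 FPKM in B6. Top2a, the topoisomerase that untangles replicated DNA, was at 31.6, 35.8 and 50.1 FPKM in SLE123 and 10.9, 12.3 and 10.4 FPKM in B6. The mitotic genes Ccna2 and Aurkb rose by 1.83 and 1.72 on the log2 scale. The third SLE123 mouse was the highest for all 5 genes and also held the most plasma cell transcripts, whose part in these values was not tested. Without it, 20 of the 23 were still called higher.

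Interferon-stimulated genes moved in both directions. Of 41, 20 rose, 6 fell and 15 were not called, with a median of 0.33 (22.8% of all genes were called higher and 20.1% lower). After rescaling to TPM the list had 9 rises and 9 falls and a median of -0.02, beside -0.38 for all genes. With immunoglobulin genes left out it had 21 rises and 4 falls and a median of 0.43, beside 0.05 for all genes. Oas1a, which senses double-stranded RNA, rose from 8.12, 6.95 and 10.6 FPKM in B6 to 24.7, 25.6 and 24.1 FPKM in SLE123. Isg20, an exonuclease, rose from 14.4, 13.5 and 17.7 FPKM in B6 to 42.8, 45.3 and 67.2 FPKM in SLE123. Gbp3, a guanylate-binding protein, rose by 1.51, and Bst2, which tethers virions to the cell surface, by 1.31 on the log2 scale.

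The largest rises of the interferon-related genes were in the Ifitm cluster of chromosome 7, which encodes small membrane proteins that block virus entry. Ifitm3 stands in the list of interferon-stimulated genes above, while Ifitm1 and Ifitm2 do not. Ifitm2 was at 899, 1250.4 and 928 FPKM in SLE123 and 6.82, 8.38 and 8.42 FPKM in B6, a 130.3-fold difference of means (log2 difference 6.84, SE 0.15, adjusted p = 4.6e-07). Ifitm1 was at 172, 177 and 161 FPKM in SLE123 and 1.97, 2.07 and 1.55 FPKM in B6, a 91.5-fold difference. Their neighbor Ifitm3 rose 6.04-fold, from 3.2, 2.04 and 4.12 FPKM in B6 to 14.6, 20.4 and 21.5 FPKM in SLE123. In treated mice Ifitm2 and Ifitm1 again differed, by 6.00 and 4.75 on the log2 scale, while Ifitm3 differed by 0.38 (adjusted p = 0.077) and was at 18.9, 16 and 12 FPKM in treated B6. Ifitm2 and Ifitm1 were higher in all 6 SLE123 libraries than in any of the 6 B6 libraries. The longest coding transcripts of Ifitm2 and Ifitm3 share 82.9% of bases over 363 aligned bases, and those of Ifitm1 and Ifitm2 80.7% over 300, and reads from the stretches they share may be split between the genes.

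The promoters of the 3 Ifitm genes are shown because the genes lie side by side and rose by different amounts. The sequences are those of RefSeq on GRCm38.p6, from 250 bases before to 30 bases after the RefSeq start of each gene. Capitals mark the motif GAAANNGAAA, the core of the interferon-stimulated response element, searched on both strands.
Ifitm1, chr7:140967826-140968105, plus strand: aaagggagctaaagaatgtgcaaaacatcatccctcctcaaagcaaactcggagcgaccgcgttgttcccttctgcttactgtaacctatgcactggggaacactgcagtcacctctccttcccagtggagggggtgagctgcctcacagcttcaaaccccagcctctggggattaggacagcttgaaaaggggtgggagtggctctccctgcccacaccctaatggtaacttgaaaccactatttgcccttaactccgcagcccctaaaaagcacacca
Ifitm2, chr7:140955932-140956211, minus strand: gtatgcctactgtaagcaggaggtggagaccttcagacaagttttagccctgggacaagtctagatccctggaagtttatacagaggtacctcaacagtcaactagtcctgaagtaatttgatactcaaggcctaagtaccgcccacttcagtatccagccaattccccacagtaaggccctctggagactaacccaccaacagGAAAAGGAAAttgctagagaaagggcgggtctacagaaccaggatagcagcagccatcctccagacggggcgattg
Ifitm3, chr7:141010715-141010994, minus strand: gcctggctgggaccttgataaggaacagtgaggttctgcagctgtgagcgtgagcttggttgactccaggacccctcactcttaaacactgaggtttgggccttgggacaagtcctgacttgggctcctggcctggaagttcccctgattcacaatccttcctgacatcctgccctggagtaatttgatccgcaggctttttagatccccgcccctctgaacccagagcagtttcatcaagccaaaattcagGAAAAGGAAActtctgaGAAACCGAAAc
The motif was found once before the start of Ifitm2, beginning 46 bases upstream, and 2 times after the start of Ifitm3, beginning at bases 3 and 20. It was not found in the Ifitm1 window. The reference annotation used for coordinates here starts Ifitm1 at base 140967221, upstream of this window, and the sequence before that start was not searched. It occurred in 3.43% of 32817 promoter windows of 300 bases. Of the 20 interferon-stimulated genes called higher, 16 had a RefSeq promoter and 13 of these held the motif. Of the 6 called lower, 5 had one and 2 held the motif, and of the 15 not called, 10 had one and 4 held it.

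The gene families of Sle1, on chromosome 1, were called in both directions. In the SLAM family, receptors that tune lymphocyte contacts, 4 of 8 tested rose and 1 fell, beside 42.9% of all genes called. Slamf6 (Ly108), which tunes contacts of T follicular helper cells with B cells, was at 191, 137 and 149 FPKM in SLE123 and 72.1, 72.3 and 60.2 FPKM in B6, a difference of 1.20 ± 0.14 (SE, n = 3 mice per group, adjusted p = 0.00066). Cd48, a ligand within the family, fell from 89.2, 90.6 and 89.3 FPKM in B6 to 64.3, 59.9 and 59.4 FPKM in SLE123. Slamf7 rose by 0.96, but by 0.64 without the third SLE123 mouse, and Slamf9 rose from 0.0944, 0.0421 and 0.142 FPKM in B6 to 2.49, 4.16 and 5.64 FPKM in SLE123. Slamf1 was called at 0.30 on the FPKM scale but was at -0.046 after rescaling to TPM. Ly9, Cd84 and Cd244a were not called, with differences of -0.10, 0.18 and 0.29, of which Cd84 was at -0.20 on the TPM scale and Cd244a at -0.0133 after quantile normalization. In treated mice the same direction was found for 6 of the 8 genes, with Slamf6 at 1.63 and Cd48 at -0.61.

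The Ifi200 family, DNA sensors and chromatin proteins induced by interferon, split. Of 10 tested, 3 rose and 5 fell, beside 42.9% of all genes called. Aim2, which assembles an inflammasome on cytosolic DNA, was at 29.5, 24.1 and 27.5 FPKM in SLE123 and 17.9, 19.8 and 16.6 FPKM in B6. Ifi211 rose from 0.526, 0.368 and 0.0753 FPKM in B6 to 5.53, 6.32 and 9.38 FPKM in SLE123, and Ifi204 rose from 0.413, 0.221 and 0.193 FPKM in B6 to 5.94, 3.37 and 5.41 FPKM in SLE123. Ifi214, Ifi208, Ifi213, Ifi206 and Ifi209 fell by 0.49 to 0.93 on the log2 scale. Of these 5, Ifi213 differed by 0.12 and Ifi206 by -0.12 in treated mice, neither called there. Ifi203 and Mndal were not called, at -0.18 and -0.04, with Mndal at 0.0482 when immunoglobulin genes were left out. The genes of this family are close copies of each other, so that the assignment of reads to single members is uncertain, as is their mapping from NZM2410 sequence to a B6 reference.

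Candidate genes of the 3 regions gave 9 rises and 1 fall among 14 tested, beside 42.9% of all genes called. Some of them are shared with the SLAM and Ifi200 families. Cdkn2c, a cell cycle inhibitor named for Sle2, was at 6.22, 6.73 and 8.04 FPKM in SLE123 and 3.56, 3.38 and 3.24 FPKM in B6, and it rose in treated mice by 0.95. Cd22, an inhibitory receptor of B cells, rose by 1.01, and Tnfsf4, the ligand of OX40, by 0.56. Cr1l, a complement regulator, fell from 48.3, 48.8 and 50.6 FPKM in B6 to 37.1, 40.3 and 38.1 FPKM in SLE123. Fcgr2b, the inhibitory Fc receptor, Fcer1g, the common Fc receptor chain, and Csf3r, the receptor of granulocyte colony-stimulating factor, rose by 1.54, 1.53 and 1.03 in untreated mice and differed by -0.08, -1.64 and 0.01 in treated mice. B cell and myeloid markers moved with these 3 genes. Fcgr3 and Fasl were not called, at 0.36 and -0.31.

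Some genes had few or no transcripts in one strain. Htatip2 (ENSMUSG00000039745, GRCm38 chr7:49759115-49773975), an inhibitor of nuclear import, was at 17.3, 18 and 16.9 FPKM in B6 and 0.124, 0.11 and 0.289 FPKM in SLE123, a 99.9-fold fall of means (log2 difference -3.97, SE 0.10, adjusted p = 1.2e-06). Eps8l1, an actin regulator on the same chromosome, was at 8.12, 14.6 and 18.5 FPKM in B6 and 0.0959, 0.136 and 0.0402 FPKM in SLE123. Zfp429, a zinc finger protein on chromosome 13, was at 0.171, 0.101 and 0.12 FPKM in SLE123 and 7.96, 8.62 and 8.48 FPKM in B6. F2rl1, the protease-activated receptor PAR2, fell from 22.7, 23.6 and 22.5 FPKM in B6 to 3.56, 3.24 and 2.21 FPKM in SLE123. Treated mice gave the same picture, with Htatip2 at 16.1, 15.5 and 15.9 FPKM in B6 and 0.243, 0.29 and 0.335 FPKM in SLE123. Pdlim4, an actin-associated protein, and Slc16a5, a monocarboxylate transporter, fell by 5.29-fold and 6.5-fold. Pdlim4 differed among SLE123 mice, at 11.5, 12.5 and 2.38 FPKM, and its difference was -2.52 on the log2 scale, or -1.87 without the third mouse.

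Ferritin light chain genes differed by copy. Ftl1, the iron-storage gene on chromosome 7, was at 470.0, 475 and 479 FPKM in B6 and 131, 187 and 172 FPKM in SLE123. Ftl2-ps, annotated as a processed pseudogene on chromosome 4, was at 0.225, 0.2 and 0.225 FPKM in B6 and 199, 279 and 235 FPKM in SLE123, the largest rise among the named genes outside the immunoglobulin loci (log2 difference 7.60, SE 0.12, adjusted p = 1.8e-07). Ftl1-ps2, a second copy, was at 14.5, 20 and 18.5 FPKM in SLE123, with 1 fragment in the 3 B6 libraries together. Ftl2-ps is identical to Ftl1 in 98.7% of 552 aligned bases and Ftl1-ps2 in 97.8% of 549, so that the gene of origin of these reads is uncertain. Added together, the 3 genes took 455 to 464 of each 1000000 fragments in B6 and 245 to 346 in SLE123.

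Over all 12 libraries, 33 genes (0.252% of those tested) were lower by at least 1 on the log2 scale in each of the 6 SLE123 libraries than in any of the 6 B6 libraries, and 423 (3.23%) were higher by as much, of which 252 were not immunoglobulin genes. Of the 33, 15 (45.5%) were on chromosomes 1, 4 and 7, which hold 19.5% of the genes tested, and of the 252 it was 60 (23.8%). Chromosome 7 held the most of both kinds, 8 lower and 28 higher among 970 tested genes. This count was chosen after the values were seen and carries no test. Among the 33 were Rpl35a, a ribosomal protein with processed copies, at 51.6, 68.3 and 40.7 FPKM in SLE123 and 221, 222 and 230.3 FPKM in B6, and Ndufs5, a subunit of respiratory Complex I, at 3.92, 8.58 and 4.79 FPKM in SLE123 and 18.2, 19.7 and 24.2 FPKM in B6. Pdk1, the kinase that holds back pyruvate dehydrogenase, was at 21.2, 16.9 and 11.6 FPKM in SLE123 and 87.6, 81.8 and 75.1 FPKM in B6. Slc1a5, a glutamine transporter on chromosome 7, fell 2.87-fold, and Ppp1r15a, a stress phosphatase subunit on the same chromosome, 4.09-fold. Among the 252 were Rgs16, a brake on chemokine receptor signals, at 34.1, 40.9 and 49.2 FPKM in SLE123 and 2.01, 3.45 and 3.21 FPKM in B6, and Angptl2, a secreted glycoprotein, at 60.9, 39.9 and 53.7 FPKM in SLE123 and 2.65, 5.24 and 4.28 FPKM in B6. Cd83, an activation marker, was at 22.7, 28.1 and 30.5 FPKM in SLE123 and 2.75, 3.22 and 2.93 FPKM in B6. Cpt1c, a gene best known from the nervous system, was at 7.26, 7.2 and 8.24 FPKM in SLE123 and 0.0666, 0.099 and 0.0445 FPKM in B6, and Iglon5, also best known from there, at 17.3, 13.7 and 16.3 FPKM in SLE123 and 0.0237, 0 and 0.119 FPKM in B6. These genes, Ftl1 and its copies were named after their values were seen.

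**Figure D4:**
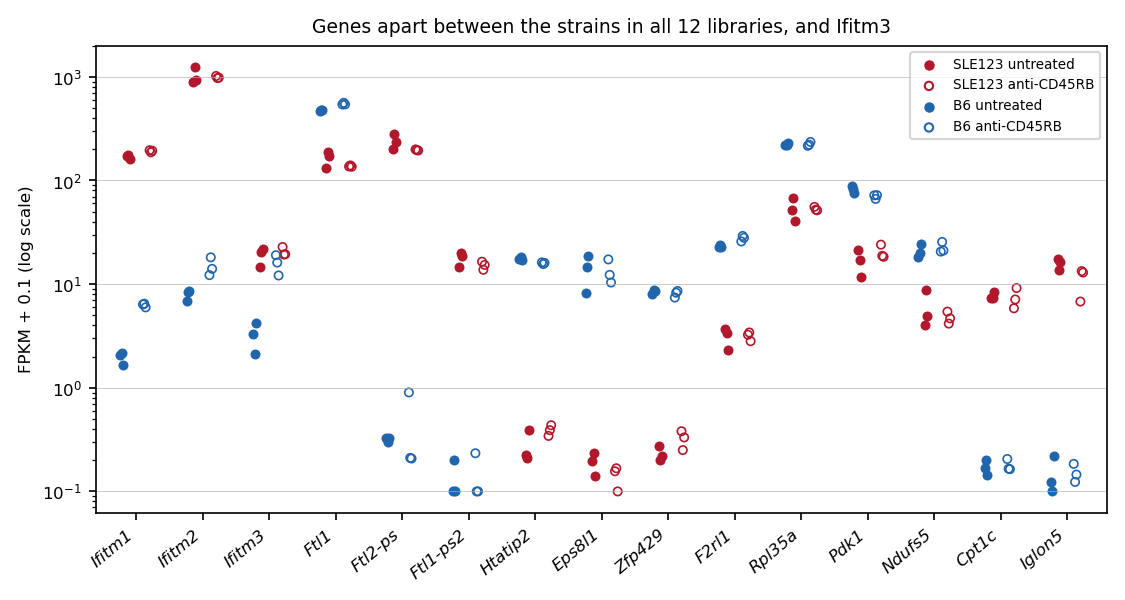
The FPKM + 0.1 of each mouse is drawn on a log axis for genes separated between the strains in untreated (filled) and treated (open) mice alike, red for SLE123 and blue for B6. Ifitm1, Ifitm2, Ftl2-ps, Ftl1-ps2, Cpt1c and Iglon5 lie far higher in all 6 SLE123 mice, Htatip2, Eps8l1 and Zfp429 far lower, and Ifitm3 overlaps between the strains when treated B6 mice are included.

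Of windows of 10 Mb with at least 20 genes tested, the 3 with the highest share were chromosome 6 from 60 to 70 Mb (66 of 76 genes), chromosome 12 from 110 to 120 Mb (137 of 178) and chromosome 6 from 70 to 80 Mb (47 of 66). They hold the kappa light chain and heavy chain loci, and their leading genes were antibody segments, Igkv4-91, Igkv1-110, Igkv14-126 and Igkv5-39 in the first, Ighg2c, Ighv1-47, Ighv1-69 and Ighv5-6 in the second and Igkv3-4, Igkv3-5, Igkv3-2 and Igkv6-17 in the third. These 12 rose by 7.46 to 8.86 on the log2 scale, and single segments share reads with close copies. Without immunoglobulin genes, 2 called genes remained in the first window, and the highest share was on chromosome 1 from 190 to 200 Mb, where 21 of 30 genes were called. On chromosomes 1, 4 and 7, 42.6%, 39.6% and 41.8% of the genes other than immunoglobulin genes were called. On the other chromosomes this share ranged from 36.4% (X) to 45.0% (18). Over all genes tested, immunoglobulin genes included, 42.9% were called.

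The counts for metabolic genes depended on the scaling. Of all genes tested, 22.8% were called higher and 20.1% lower on the FPKM scale. Of 20 glycolytic genes tested, 10 rose and 1 fell, with a median of 0.35. Tpi1, triose phosphate isomerase, was at 75.6, 84.5 and 95.9 FPKM in SLE123 and 27.3, 29.9 and 31.4 FPKM in B6, a difference of 1.50 ± 0.11 (SE, n = 3 mice per group, adjusted p = 6.5e-05). Pgam1, phosphoglycerate mutase, was at 30.2, 29.5 and 31.5 FPKM in SLE123 and 14.3, 13 and 14.6 FPKM in B6. Gapdh, the next enzyme after Tpi1, was at 494, 550.0 and 529 FPKM in SLE123 and 321, 332 and 335 FPKM in B6. Hk2, the inducible hexokinase, and Slc16a3, the lactate exporter MCT4, rose by 1.23 and 1.30 from low levels. After rescaling to TPM, 4 glycolytic genes were called higher and 6 lower, and with immunoglobulin genes left out 12 were called higher and 1 lower. Of 22 Krebs cycle genes, 3 rose and 3 fell, and the median was 0.01, while on the TPM scale none was called higher and 13 lower. Leaving out immunoglobulin genes gave 6 called higher and 1 lower. The largest difference on the FPKM scale was that of Pdha1, a subunit of pyruvate dehydrogenase, which fell by 0.55. Mpc2, a pyruvate carrier, and Fh1, fumarate hydratase, rose by 0.44 and 0.38, and Sdhd, a succinate dehydrogenase subunit, was at 0.36 on the FPKM scale and -0.0103 on the TPM scale. Idh2, isocitrate dehydrogenase, fell by 0.34, or by 0.22 without the first SLE123 mouse. In the pentose phosphate pathway, 2 rose and 2 fell of 10, with Rpia, ribose-5-phosphate isomerase, at 0.75 and H6pd, a dehydrogenase of the endoplasmic reticulum, at -0.79. G6pdx, the first enzyme of the pathway, was at 0.29, or -0.079 on the TPM scale, and Prps2, which makes phosphoribosyl pyrophosphate, at -0.31. Of 78 nuclear respiratory chain genes, 16 rose, 2 fell and 60 were not called, while 42.9% of all genes were called. The Complex I subunits Ndufa1 and Ndufs6 were at 0.70 and 0.58. On the TPM scale none of them was called higher and 12 lower, without immunoglobulin genes 37 were called higher and 1 lower, and without the third SLE123 mouse 7 were called higher. Of 12 genes of the mitochondrial chromosome 1 fell, mt-Co3 at -0.55. With immunoglobulin genes left out, none of the 12 was called lower and 1 was called higher.

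Glycan enzymes were called about as often as all genes (42.9%). Among 13 enzymes of N-linked glycans, 5 rose and 2 fell, or 4 and 4 on the TPM scale. Leaving out immunoglobulin genes gave 4 and 1. Fut8, which adds the core fucose, was at 27.9, 20 and 44.4 FPKM in SLE123 and 8.88, 9.76 and 9.71 FPKM in B6, a difference of 1.53 ± 0.25 (SE, n = 3 mice per group, adjusted p = 0.0029). Mgat1, which starts complex N-glycans, was at 45.9, 51.1 and 65.8 FPKM in SLE123 and 30, 30.1 and 31 FPKM in B6. Stt3a, a catalytic subunit of the oligosaccharyltransferase, was at 31.3, 30.8 and 41.2 FPKM in SLE123 and 19.8, 19.6 and 21.5 FPKM in B6. The third SLE123 mouse was highest for all 3. Mgat4b, a branching enzyme, rose by 0.73, and Man1a, a trimming mannosidase, by 0.51, or 0.31 and no longer called without the third mouse. Among 25 enzymes of O-glycans and sialic acid, 8 rose and 5 fell, or 5 and 14 on the TPM scale. With immunoglobulin genes left out these counts were 8 and 4. Galnt10, which starts O-glycans, fell from 50.2, 51.6 and 49.5 FPKM in B6 to 17.5, 14.8 and 10.8 FPKM in SLE123. Galnt6, an enzyme of the same family, fell from 103, 101 and 98.3 FPKM in B6 to 59.2, 50.5 and 38.2 FPKM in SLE123. St8sia1, a sialyltransferase of gangliosides, fell by 2.84-fold, while St6galnac6, another sialyltransferase, and Gcnt1, which branches O-glycans into core 2, rose by 1.34 and 1.08 on the log2 scale. Of 80 ribosomal protein genes, 9 were called lower and 1 higher, with a median of -0.39, while 70 were called lower on the TPM scale and 18 without immunoglobulin genes. Rpl12, a protein of the large subunit, was at 1093, 1180.2 and 742 FPKM in SLE123 and 1662, 1664 and 1711 FPKM in B6. Rps7, a protein of the small subunit, was at 1159, 1479.9 and 864 FPKM in SLE123 and 1853, 1819.9 and 1888 FPKM in B6. Rps27l, a relative of a ribosomal protein that responds to p53, rose by 1.01 on the log2 scale. Many ribosomal protein genes have processed copies that share their reads.

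Of 26 signaling genes of the T cell receptor, 7 rose and 6 fell, beside 42.9% of all genes called. On the TPM scale 4 higher and 15 lower were called, and with immunoglobulin genes left out 8 higher and 5 lower. Rasgrp1, which activates Ras, was at 50.7, 34.1 and 32.5 FPKM in SLE123 and 121, 114 and 105 FPKM in B6, a difference of -1.54 ± 0.17 (SE, n = 3 mice per group, adjusted p = 0.00045). Dgka, which removes diacylglycerol and so restrains the same step, fell from 649, 665 and 651 FPKM in B6 to 382, 289.5 and 229 FPKM in SLE123. Cbl, a ubiquitin ligase, was at 24.7, 7.64 and 16.3 FPKM in SLE123 and 37.1, 38.2 and 36 FPKM in B6, with the second SLE123 mouse lowest, and its difference was -1.28, or -0.85 without that mouse. Syk, a kinase shared with B and myeloid cells, rose to 8.41, 8.56 and 26.2 FPKM in SLE123 from 1.27, 0.866 and 1.2 FPKM in B6, and B cell and myeloid markers moved with it. Ptprc, which encodes CD45, the target of the antibody, was at 492, 328 and 377 FPKM in SLE123 and 542, 510.2 and 507 FPKM in B6 and was not called (log2 difference -0.40, SE 0.16, adjusted p = 0.083). Hnrnpll, which promotes the skipping of variable CD45 exons in activated cells, was at 26.7, 23 and 27.3 FPKM in SLE123 and 14.5, 14.4 and 14.2 FPKM in B6, a difference of 0.79 ± 0.09 (SE, n = 3 mice per group, adjusted p = 0.00048). Hnrnpll stands outside the naming rule and was chosen with the values known. A gene-level table does not show which CD45 isoforms were made.

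Of 20 genes of cytokine receptors and their signaling, 9 fell and 4 rose, beside 42.9% of all genes called. These counts were 13 and 2 on the TPM scale and 8 and 5 with immunoglobulin genes left out. Il7r, the survival receptor of naive and memory cells, was at 163, 128 and 93.5 FPKM in SLE123 and 253, 211 and 225 FPKM in B6. Il4ra, the interleukin 4 receptor, was at 30.4, 26.2 and 17.4 FPKM in SLE123 and 63.3, 65.5 and 65.6 FPKM in B6. Il6ra, the interleukin 6 receptor, was at 79.6, 55.5 and 47.9 FPKM in SLE123 and 103, 106 and 105 FPKM in B6. The third SLE123 mouse was the lowest library for all 3. Jak3, the kinase of the common gamma chain receptors, rose from 60.3, 63.6 and 70.5 FPKM in B6 to 147, 127 and 129 FPKM in SLE123, and Socs2, an inhibitor of cytokine signals, rose by 1.04 on the log2 scale. Of 15 genes around the transcription factor CREB, 3 fell and 1 rose, beside 42.9% of all genes called. On the TPM scale 12 were called lower and none higher. With immunoglobulin genes left out, 1 was called lower and 2 higher, and the same counts were found without the third SLE123 mouse. Crebbp, Ep300 and Crtc1, which are coactivators, fell by 0.48, 0.44 and 0.37 on the log2 scale, Ep300 by 0.29 without the second SLE123 mouse, and Crem, a CREB relative, rose by 0.48. In MHC class I presentation, 6 of 14 genes rose and none fell on the FPKM scale (22.8% of all genes were called higher). On the TPM scale 1 higher and 1 lower were called, and with immunoglobulin genes left out 10 higher and none lower. The genes that rose on the FPKM scale included Psmb9, an immunoproteasome subunit, Tapbp, which loads peptide, and H2-T23, a nonclassical class I gene, by 0.46, 0.46 and 0.41. Psmb8, another such subunit, was at 0.37 on the FPKM scale and -0.0078 on the TPM scale. H2-Q6, which has near-identical neighbors, was at 1.25.

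The strain difference itself differed between untreated and treated mice for 3.64% of the genes tested, in a fit of all 12 mice. The 3 called genes with the smallest adjusted p-values were Alox5ap, a helper of leukotriene synthesis, Mcpt8 and Ccl5, a chemokine. Alox5ap was at 11.1, 15.5 and 13.6 FPKM in untreated SLE123 and 3.2, 2.4 and 2.48 FPKM in untreated B6. In treated mice it was at 5.65, 5.29 and 6.34 FPKM in SLE123 and 16.9, 15 and 13.1 FPKM in B6, so that its strain difference was 1.96 in untreated and -1.24 in treated mice. Ccl5 was at 121, 151 and 126 FPKM in untreated SLE123 and 56.3, 56.4 and 59.8 FPKM in untreated B6. In treated mice it was at 105, 114 and 97.6 FPKM in SLE123 and 166, 205 and 229 FPKM in B6, where the order of the strains was the opposite. Mcpt8 differed by 4.38 in untreated and 0.56 in treated mice. Among the named genes the widest gap, of 4.84, was that of H2-Eb1. H2-Eb1 and H2-Ab1, chains of class II molecules found on antigen-presenting cells, rose by 4.07 and 4.09 in untreated mice and differed by -0.77 and -0.45 in treated mice. H2-Eb1 was at 24.2, 29.6 and 122 FPKM in untreated SLE123 and 2.98, 0.7 and 1.94 FPKM in untreated B6, with the third SLE123 mouse far above the others. Of 10 class II genes, 7 rose and 1 fell in untreated mice, and 6 of them were among the genes whose strain difference differed. None of the T follicular helper, cell cycle or naive T cell genes was.

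**Figure D5:**
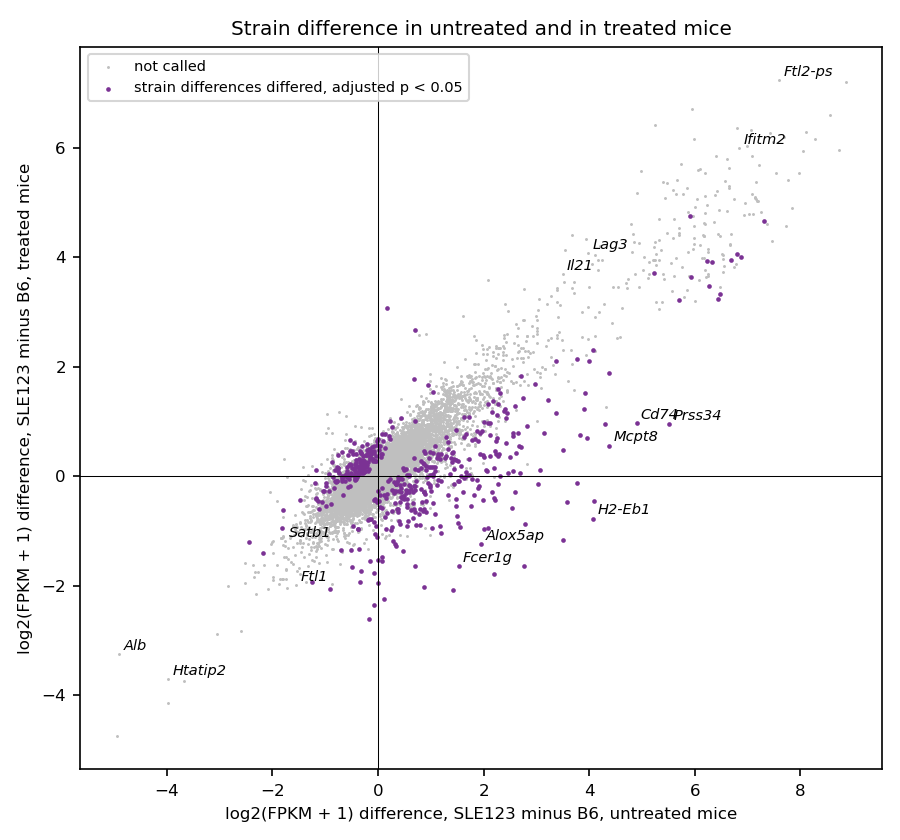
Each point is a tested gene, placed by its log2(FPKM + 1) strain difference in untreated mice (horizontal) and in treated mice (vertical), with purple for genes whose strain differences differed at an adjusted p under 0.05. Most points lie along the diagonal, including Lag3, Il21, Ifitm2 and Htatip2, while Prss34, Mcpt8, Cd74 and H2-Eb1 lie far below it.

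Of the 10 genes with the largest rises outside immunoglobulin and T cell receptor segments, Slpi, Spp1 and Cd74 remain. Slpi, an inhibitor of neutrophil proteases, was at 261, 324 and 524 FPKM in SLE123 and 2.48, 2.52 and 2.34 FPKM in B6, a difference of 6.69 ± 0.23 (SE, n = 3 mice per group, adjusted p = 3.9e-06). Cd74, the invariant chain of MHC class II, was at 199.6, 327 and 675 FPKM in SLE123 and 12.7, 7.92 and 12.8 FPKM in B6 and differed by 0.97 in treated mice. Spp1, the secreted phosphoprotein osteopontin, was at 36, 25.4 and 42.4 FPKM in SLE123 and 0.37, 0.147 and 0.165 FPKM in B6, and it kept a strain difference of 4.42 in treated mice.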

How the data were processed

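CD4+ cells of 12 mice in 4 groups of 3 were sequenced, and the 6 untreated mice were compared by strain. Per the labels and the study's methods, the authors called bases with CASAVA 1.8, filtered reads, mapped them with STAR to mm10 and deposited 1 table of FPKM values; the submitters' processing notes name these tools and the build, and the counting program and its annotation are not given in the sources used here. No column of the table was left out. Reads of NZM2410 segments were mapped to a B6-based reference, and the effect of that was not tested.

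FPKM values are whole multiples of the worth of 1 fragment, so the fragments were recovered. All 23230 genes with a value above 0 gave whole fragments within 0.01 (100%). The floor of 3 fragments on a transcript of 2000 bases was 0.0634 to 0.111 FPKM, for counting error only. Of the genes listed, those averaging 0.5 FPKM or more across all 12 libraries were tested as log2(FPKM + 1) with limma 3.58.1 (R 4.3.3, lmFit and eBayes with trend) on the 6 untreated libraries. The treated comparison used the other 6, and the difference of both strain differences used all 12. P-values measure the spread between these samples, and 6859 genes had an unadjusted p-value under 0.05. Voom on the recovered fragments called 5750 genes, against 5621 in the fit described.

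The members and gene lists were chosen with earlier results of these data known. Named genes were the 10 largest called rises and falls without overlap (no unnamed, immunoglobulin or T cell receptor genes), all SLAM, Ifi200 and candidate genes, up to 5 called genes of each other list, 4 genes of each of the 3 windows of 10 Mb with the largest share called, and the 3 smallest adjusted p-values for the difference of strain differences. Some genes that this rule names are not reported here. Other names stand outside this rule and were chosen with the values known, Cd4 and Hnrnpll among them. Gene identifiers and coordinates are those of the reference annotation on GRCm38, the build mm10, and aligned identities came from BLAST 2.17.0+. Alternatives were other pseudocounts, filters, scalings, voom, a replicate block and leaving out each mouse.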

Additional observations from a re-analysis of the deposited data

Results flagged for a closer look

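For the named genes given here the strain difference in untreated mice differed from that in treated mice in a fit of all 12 mice (limma, adjusted p under 0.05, beside 3.64% of all genes tested). The value after each gene is the untreated strain difference minus the treated one on the log2(FPKM + 1) scale, and the causes were not tested.

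Most of these genes mark other cells. Among MHC class II genes and the invariant chain they were H2-Eb1 (4.84), H2-Aa (4.66), H2-Ab1 (4.54), Cd74 (3.92) and H2-DMb2 (2.46). B cell genes were Cd79a (3.07), Cd79b (2.67) and Blk (2.65). Monocyte and other myeloid genes were Lyz2 (4.40), Tyrobp (3.97), Fcer1g (3.16), Mpeg1 (2.97), Csf1r (2.42), Cst3 (1.39), Fcgr2b (1.63), Csf3r (1.02) and Syk (2.11). Neutrophil genes were S100a8 (2.96), S100a9 (2.88), Elane (2.40) and Mpo (1.76). Basophil and mast cell genes were Prss34 (4.56), Mcpt8 (3.82), Fcer1a (1.87), Ms4a2 (1.67) and Cpa3 (0.99), to which Prg2, an eosinophil granule protein named after its values were seen, adds a value of 3.35. Red cell and platelet genes were Hba-a1 (3.89), Hbb-bs (3.18), Hbb-bt (2.09), Pf4 (2.22) and Itga2b (1.24).

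Among genes of cytotoxic cells and chemokines, the values were Gzma (2.22), Ccl5 (2.09), Ccl3 (1.96), Ccl4 (1.74) and Cd244a (1.46). Genes of the activation, interferon-stimulated and Ifi200 lists were S100a4 (1.35), S100a6 (1.17), Anxa2 (1.05), Ifitm3 (1.90) and Ifi211 (1.30). The others were Alox5ap (3.19), Slpi (2.73), Pmaip1 (1.83), Hsph1 (1.28), Ifitm1 (1.16) and Slc16a3 (0.58), of which Slpi and Ifitm1 stand in no list. A strain difference that was lower in untreated mice was found for 3 genes, Slc16a5 (-1.25), Prps2 (-0.57) and Jak3 (-0.51). No gene of the T follicular helper, naive, cell cycle or plasma cell lists passed this test, which does not show that their strain differences were equal.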

How the results depend on the processing

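Over 4299 values of the named genes under 18 settings, 4084 kept their direction and their side of the threshold, 190 kept the direction but were no longer called, 18 became called and 7 changed sign. The 7 were Slamf1 (-0.046), Cd84 (-0.20), G6pdx (-0.079), Sdhd (-0.0103) and Psmb8 (-0.0078) on the TPM scale, Cd244a (-0.0133) after quantile normalization and Mndal (0.0482) without immunoglobulin genes. Genes called higher numbered 1914 on the TPM scale. Genes called lower numbered 5974 on the TPM scale, 4581 after quantile normalization and 1689 on the TPM scale without immunoglobulin genes. Genes lower by at least 1 numbered 518 with a pseudocount of 0.1, 1108 on the TPM scale, 518 after quantile normalization and 556 with voom. The cause of each was not tested beyond the scaling itself.

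With 1 mouse left out, the genes called ranged from 3672 to 6469, those higher from 2296 to 3206, those lower from 1372 to 3263, those higher by at least 1 from 1094 to 1344, those lower by at least 1 from 230 to 423, and those called in treated mice from 5524 to 6685.

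List medians relative to the median of all genes moved by more than the spread between mice in these cases, given on the TPM scale and on the TPM scale without immunoglobulin genes: plasma cell 4.37 and 4.41, neutrophil 3.20 and 3.23, dendritic cell 0.76 and 0.62, basophil and mast cell 2.89 and 2.88, erythroid 2.83 and 2.82, liver -2.81 and -3.20, Th2 1.11 and 1.06, Th17 0.92 and 0.87, coinhibitory receptors 1.43 and 1.39, locus candidates 1.02 and 0.97, and MHC class II 2.42 and 2.43. Without immunoglobulin genes, the genes called in the windows were 2 on chromosome 6 from 60 to 70 Mb, 33 (32 after rescaling) on chromosome 12 from 110 to 120 Mb and 17 (16 after rescaling) on chromosome 6 from 70 to 80 Mb. The first window then held too few genes for a rescaled value.

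No paired analysis was possible within the untreated comparison because its groups share fewer than 2 replicate numbers. Deviations of same-numbered mice correlated by -0.16 to 0.27. The sample titles do not say that mice of the same number belong together, and whether they share a batch was not tested. A replicate block over all 12 mice called 4989 genes in the untreated comparison, the block called 3414 genes in treated mice and it called 91 genes for the difference of the strain differences, against 478 without it.

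The number of mice and the depth limit the precision of genes near the floor of 3 fragments.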

Other observations

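Adhesion genes, apoptosis genes and heat shock genes also differed in untreated mice. Of 20 chemokine receptors and integrins, 9 rose and 3 fell, beside 42.9% of all genes called. These counts were 7 and 7 on the TPM scale and 9 and 3 with immunoglobulin genes left out. Itgb1, the integrin beta 1 chain of memory cells, was at 237, 202 and 194 FPKM in SLE123 and 63.8, 70.9 and 75.2 FPKM in B6. Itgae, the integrin CD103, was at 3.65, 3.73 and 4.51 FPKM in SLE123 and 0.903, 0.69 and 0.663 FPKM in B6. The groups did not overlap for either gene, and in treated mice the differences were 1.27 and 0.81 on the log2 scale.

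Of 15 apoptosis genes, 6 rose and 3 fell, or 2 and 7 on the TPM scale. Leaving out immunoglobulin genes gave 7 and 2. Pmaip1, the BH3-only protein Noxa, was at 5.95, 6.63 and 7.82 FPKM in SLE123 and 1.27, 0.878 and 1.67 FPKM in B6, and its strain difference in treated mice was -0.04. Bid and Bad, which promote death, rose by 0.54 and 0.50, and Casp8, an initiator caspase, fell by 0.53 on the log2 scale.

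Of 10 heat shock genes, 3 rose and 3 fell, or 0 and 3 on the TPM scale. Leaving out immunoglobulin genes gave 3 and 3. Hspa1b was at 6.5, 12.3 and 6.13 FPKM in SLE123 and 32.9, 24.2 and 21.7 FPKM in B6. Its near-identical copy Hspa1a was at 0.959, 2.11 and 1.24 FPKM in SLE123 and 5.91, 3.41 and 3.31 FPKM in B6, and reads may be split between both. The chaperones Hsph1, Hsp90aa1 and Hspd1 rose by 0.69, 0.47 and 0.45, and without the third SLE123 mouse 0 of the list were called higher.

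Several further genes separated the strains and were named after their values were seen. Ly6c1, a surface protein of memory cells and monocytes, was at 30.1, 28.7 and 8.02 FPKM in SLE123 and 111, 89.6 and 109 FPKM in B6. Gas5, a host gene of small nucleolar RNAs on chromosome 1, was at 35.7, 34.3 and 39.6 FPKM in SLE123 and 111, 115 and 115 FPKM in B6. Tceanc2, on chromosome 4, was at 0.395, 0.15 and 0.303 FPKM in SLE123 and 5.52, 5.42 and 5.1 FPKM in B6. Raver2, an RNA-binding protein on chromosome 4, and Rnf144a, a ubiquitin ligase on chromosome 12, fell 14.7-fold and 4.67-fold in mean FPKM. In each of the first 3 genes all SLE123 mice lay below all B6 mice.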
